A study of Arabidopsis thaliana with 18 samples.

Results

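SAG29, WRKY6, BETA-VPE and GAMMA-VPE are 4 genes of Arabidopsis thaliana that are linked by name or known role to leaf senescence and to protein turnover in the vacuole. They were taken by their symbols in the array annotation, and are 4 of the 13350 genes to which that annotation gave a probe set of their own. The data were 18 Affymetrix ATH1 arrays, which carry short oligonucleotide probes. They were hybridised with biotin-labelled material made from total RNA of plants of the accession Tsu-1. On 9 arrays the plants had been given 0.3 mM salicylic acid (SA), a hormone of plant defence that also acts in senescence, in 0.02% silwet. On the other 9 they had been given only the surfactant silwet, at 0.02%. All plants thus received silwet.

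Within a treatment the array numbers in the sample titles form 3 runs of 3 arrays, called triplets 1, 2 and 3 here. For SA these are arrays 100 to 102, 103 to 105 and 106 to 108. For silwet they are arrays 91 to 93, 94 to 96 and 97 to 99. Each triplet holds replicate numbers 1, 2 and 3. The labels say neither what separates the triplets nor which tissue was taken, and they give no age and no time after treatment, so a difference between triplets cannot be assigned to ageing from the labels. Whether each array had plants of its own is not stated either, so the spread behind every p-value here may be technical.

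Leaf senescence is an ordered programme in which a leaf takes its own proteins, pigments and membranes apart and exports the nutrients. SAG29, also named SWEET15, is a sugar transporter of the plasma membrane whose transcript accumulates in senescing leaves. WRKY6 is a transcription factor of the WRKY family associated with senescence and with defence. BETA-VPE and GAMMA-VPE are vacuolar processing enzymes, cysteine proteases that cut after asparagine or aspartate and bring other vacuolar proteins to their mature form. BETA-VPE is best known from seeds, where it processes storage proteins, and GAMMA-VPE from vegetative organs, where it acts in senescence and in cell death.

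Each gene had 1 probe set, and all 4 passed the filter on low signal: 245982_at for SAG29 (locus AT5G13170), 264746_at for WRKY6 (AT1G62300), 262644_at for BETA-VPE (AT1G62710) and 253358_at for GAMMA-VPE (AT4G32940). Values are log2 of the deposited signal, so a difference of 1 is a doubling. SAG29 and BETA-VPE were dim: they lay above the median of their own array on 7 and 5 of 18 arrays, and low signals of this kind scatter widely on the log2 scale. WRKY6 and GAMMA-VPE lay above it on all 18.

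Median log2 signal ran from 4.7 to 5.17 over the arrays. SA array 100 and silwet array 97 stood apart, with mean correlations to the other arrays of 0.852 and 0.88. The log2 ratio of the 3′ to the 5′ actin control probe sets, a measure of RNA integrity, ran from 1.99 to 3.19 in SA triplet 1, 1.61 to 2.33 in SA triplet 2 and 1.5 to 2.06 in SA triplet 3. In silwet it ran from 1.98 to 3.42, from 1.54 to 1.92 and from 1.98 to 2.38. Its highest values were on arrays 91 (3.42) and 100 (3.19), both of triplet 1 and of replicate number 1. The remaining arrays of triplet 1, 92, 93, 101 and 102, gave 2.04, 1.98, 2.34 and 1.99. The same ratio for GAPDH ran from -0.48 on array 102 to 0.86 on array 100. The part of RNA integrity in the differences below, between triplets or replicate numbers, was not tested. In RNA of whole samples, fewer cells of a type and less RNA per cell cannot be told apart.

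**Figure D1:**
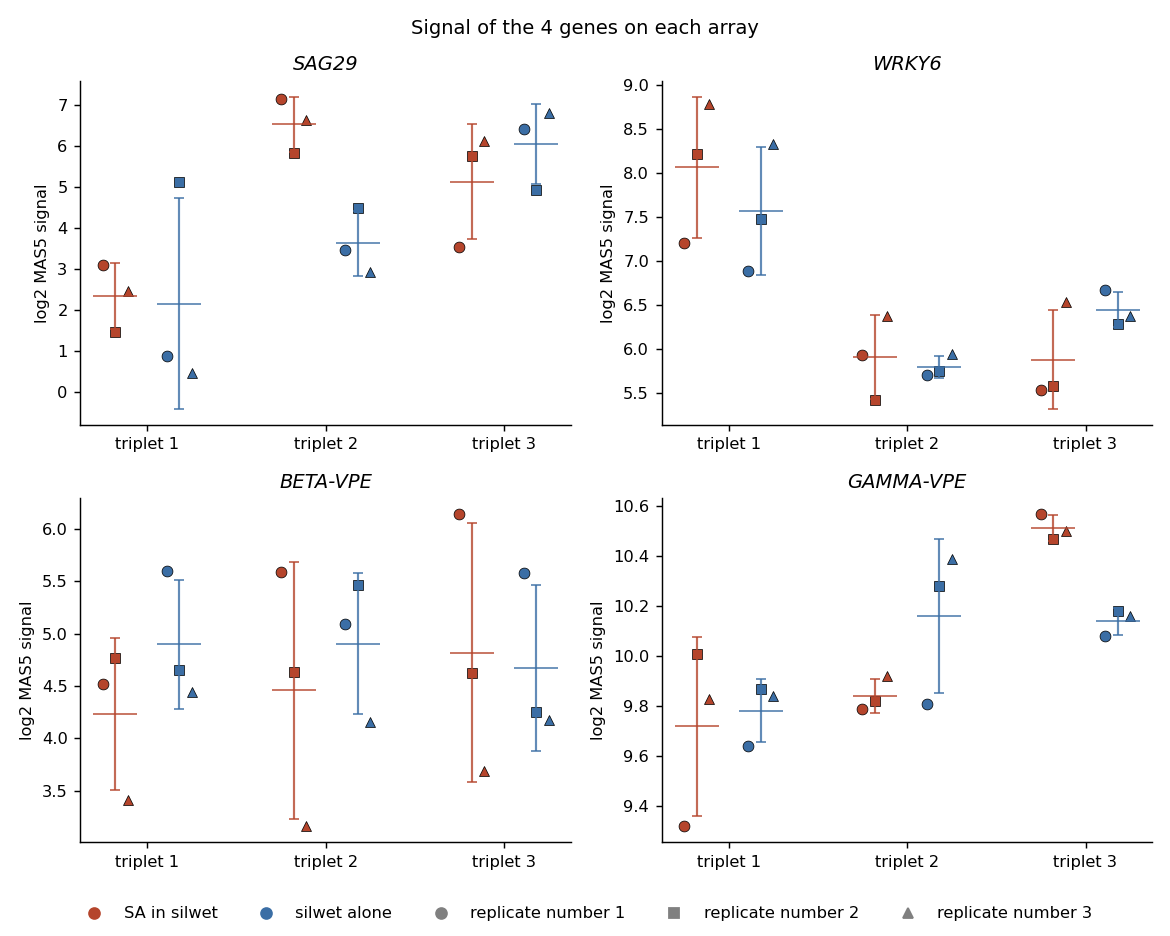
Log2 MAS5 signal (y axis, a different range in each panel) of the 4 genes on every array, by triplet (x axis), with SA left of silwet. Points are arrays, shaped by replicate number, and bars give the mean ± SD of 3 arrays. WRKY6 was highest in triplet 1 in both treatments, and the 3 SA arrays of triplet 3 of GAMMA-VPE lay between 10.47 and 10.57.

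The first comparison asked whether the genes changed over the triplets in both treatments. SAG29 rose and WRKY6 fell in triplets 2 and 3 against triplet 1, GAMMA-VPE rose in triplet 3 against triplet 1, and for BETA-VPE no change passed the test. Over the mean of both treatments, triplet 3 stood 1.49-fold above triplet 1 for GAMMA-VPE and at 0.318 of it for WRKY6. For SAG29 the fitted ratio was 10.1-fold, but it rests on dim signals in triplet 1: it was 6.32-fold with a floor at the 20th percentile of signal and 16.9-fold without array 92. In this comparison limma called 22.8% of all 15922 probe sets tested, 12.9% higher and 9.92% lower, so a call was common among all probe sets. For triplet 2 against triplet 1 it called 21.4%, and for triplet 3 against triplet 2 0.182%.

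SAG29, the sugar transporter, had log2 signals of 3.09, 1.48 and 2.47 on SA arrays of triplet 1, 7.15, 5.82 and 6.62 in triplet 2, and 3.53, 5.75 and 6.12 in triplet 3. In silwet it had 0.89, 5.11 and 0.47 in triplet 1, 3.47, 4.49 and 2.92 in triplet 2, and 6.42, 4.93 and 6.79 in triplet 3. SA triplets 2 and 3 lay wholly above triplet 1, whereas in silwet, array 92 of triplet 1 lay above the lowest array of triplet 3. Silwet triplet 3 lay wholly above triplet 2, by 2.42, a difference that did not pass (limma adjusted p = 0.346), and 7.7% of probe sets were separated in this way. For such full separation within SA, the background was 17.6% of probe sets higher for triplet 2 and 20.7% for triplet 3.

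Averaged over both treatments, the SAG29 difference in log2 signal was 2.83 (SE 0.68, limma adjusted p = 0.00716) for triplet 2 minus triplet 1 and 3.34 (SE 0.68, limma adjusted p = 0.00201) for triplet 3 minus triplet 1. Triplet 3 was above triplet 1 in 5 of 6 pairs of the same treatment and replicate number. An exact permutation test over the 400 exchanges of arrays within treatments gave a two-sided p of 0.01 for triplet 3 against triplet 1, or 0.0267 after adjustment over 8 such tests. The 4 genes were chosen with earlier results of these data known. The adjustment over 8 tests, here and below, does not cover that choice, so these p-values are no independent support. The mean log2 signal in triplet 1 was 2.25, below the 3.21 that a probe set needed over all arrays to be tested, so SAG29 passed the filter only through triplets 2 and 3. Its tests against triplet 1 thus concern a gene kept for its later signal. Fitted with no filter, the limma adjusted p was 0.0098 for triplet 2 and 0.00276 for triplet 3. With the floor the differences were 2.15 and 2.66, and without array 92 they were 3.57 and 4.08. Both limma calls held with each array left out in turn, and without arrays 97 and 100 together, where the differences were 3.02 and 3.43.

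Within SA, limma called 19.4% of probe sets for triplet 2 minus triplet 1 and 22.6% for triplet 3 minus triplet 1, and within silwet 3.59% and 5.77%. In SA, triplet 2 exceeded triplet 1 by 4.19 (SE 0.97, limma adjusted p = 0.00594). Triplet 3 exceeded triplet 1 by 2.79 in SA (limma adjusted p = 0.0477) and by 3.89 in silwet (limma adjusted p = 0.0267). The call for triplet 2 minus triplet 1 in SA held with each array left out in turn. The call for triplet 3 minus triplet 1 in SA was lost on leaving out any 1 of 12 arrays, namely 94, 95, 96, 97, 99, 101, 102, 103, 104, 105, 107 and 108, with adjusted p up to 0.156, and missed the threshold with no filter on low signal (0.0654) and with quantile normalization (0.0538). That in silwet was lost without array 91, 93, 97 or 99, with adjusted p up to 0.149, and without arrays 97 and 100 together (0.0624). Triplet 2 minus triplet 1 in silwet, 1.47 (limma adjusted p = 0.544), measured 2.95 without array 92 and then passed at 0.0424.

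WRKY6, the transcription factor, had log2 signals of 7.2, 8.22 and 8.78 on SA arrays of triplet 1, 5.93, 5.42 and 6.38 in triplet 2, and 5.53, 5.58 and 6.53 in triplet 3. In silwet it had 6.89, 7.48 and 8.33 in triplet 1, 5.70, 5.75 and 5.94 in triplet 2, and 6.67, 6.29 and 6.38 in triplet 3. Every array of triplets 2 and 3 was below every array of triplet 1, 6 arrays against 6. Among all probe sets, 4.14% were separated this way for triplet 2 and 3.76% for triplet 3.

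Over both treatments WRKY6 fell by 1.96 on the log2 scale (SE 0.28, limma adjusted p = 0.000126) for triplet 2 minus triplet 1. For triplet 3 minus triplet 1 it fell by 1.65 (SE 0.28, limma adjusted p = 0.000515). The exact permutation p for triplet 3 against triplet 1 was 0.005, the smallest that 400 exchanges can give, and 0.02 after adjustment over 8 tests. Both limma calls held with each array left out in turn. Without arrays 97 and 100 the differences were -2.18 and -1.92. Within SA, triplets 2 and 3 were lower than triplet 1 by log2 differences of -2.15 and -2.18 (limma adjusted p = 0.00132 and 0.000977).

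In silwet, triplet 2 differed from triplet 1 by -1.77 in WRKY6 (limma adjusted p = 0.0189), a call lost without array 93, 94 or 95, with adjusted p up to 0.141. Triplet 3 minus triplet 1 in silwet was -1.12 and did not pass (limma adjusted p = 0.112), but it passed at 0.028 with the replicate number as a block, a fit that called 12.7% of probe sets, and at 0.0439 without array 100. Silwet triplet 3 lay wholly above triplet 2 in WRKY6, with a difference of 0.65 that did not pass (limma adjusted p = 0.424), and 7.7% of probe sets were separated in this direction.

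GAMMA-VPE, the vegetative processing enzyme, had log2 signals of 9.32, 10.01 and 9.83 on SA arrays of triplet 1, 9.79, 9.82 and 9.92 in triplet 2, and 10.57, 10.47 and 10.50 in triplet 3. In silwet it had 9.64, 9.87 and 9.84 in triplet 1, 9.81, 10.28 and 10.39 in triplet 2, and 10.08, 10.18 and 10.16 in triplet 3. All 6 arrays of triplet 3 lay above all 6 arrays of triplet 1, as did 4.03% of all probe sets in this direction. Between triplet 2 and triplet 1 the arrays overlapped.

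The GAMMA-VPE difference over both treatments was 0.58 (SE 0.12, limma adjusted p = 0.00256) for triplet 3 minus triplet 1, with an exact permutation p of 0.005, again the smallest possible, and 0.02 after adjustment over 8 tests. That difference was 0.49 without arrays 97 and 100, and its call held there and with each array left out in turn. Triplet 2 minus triplet 1 gave 0.25 (limma adjusted p = 0.16), and triplet 3 minus triplet 2 0.33 (limma adjusted p = 0.439). Within SA, triplet 3 exceeded triplet 1 by 0.79 (SE 0.17, limma adjusted p = 0.00333). In silwet it measured 0.36 higher and did not pass (limma adjusted p = 0.235).

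BETA-VPE, the seed-type processing enzyme, had log2 signals of 4.52, 4.77 and 3.41 on SA arrays of triplet 1, 5.59, 4.63 and 3.16 in triplet 2, and 6.14, 4.62 and 3.69 in triplet 3. In silwet it had 5.60, 4.65 and 4.44 in triplet 1, 5.09, 5.46 and 4.16 in triplet 2, and 5.58, 4.25 and 4.18 in triplet 3. All triplets overlapped in both treatments. Triplet 3 minus triplet 1 was 0.18 with a 95% interval of -0.80 to 1.16 (limma adjusted p = 0.836), and the exact permutation p was 0.77. The interval is wide enough to hold changes of the size measured for GAMMA-VPE. It comes from a fit without the replicate number, where the SE was 0.46. With that number as a block the SE was 0.26, and the difference still did not pass (limma adjusted p = 0.661).

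**Figure D2:**
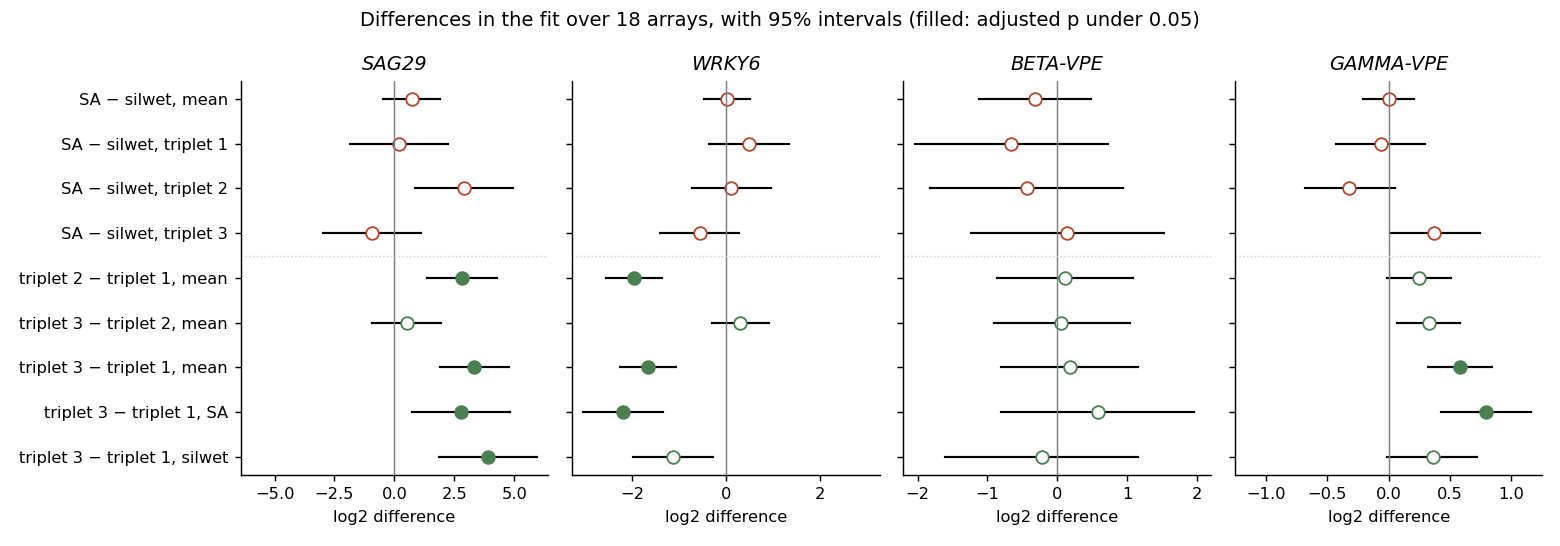
Log2 differences of the 4 genes (x axis, scaled to each panel) with 95% intervals, from the fit over 18 arrays. The upper rows give SA minus silwet and the lower rows later minus earlier triplets, and filled points passed a limma adjusted p of 0.05. No SA difference passed, while triplet 3 minus triplet 1 passed for SAG29 (3.34), WRKY6 (-1.65) and GAMMA-VPE (0.58). Of all probe sets, limma called 0% for SA minus silwet averaged over triplets, 3.24% for it in triplet 1, and 22.8% for triplet 3 minus triplet 1.

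The second comparison asked whether SA changed the 4 genes. Averaged over triplets, none of the 4 differed between SA and silwet by a margin that passed the test. SAG29 averaged 4.67 ± 2.04 in SA and 3.94 ± 2.22 in silwet (SD, n = 9 arrays each), a limma difference of 0.73 (SE 0.56) with a 95% interval of -0.46 to 1.91. WRKY6 averaged 6.62 ± 1.21 in SA and 6.6 ± 0.86 in silwet, a difference of 0.02 (SE 0.23, interval -0.47 to 0.51). BETA-VPE averaged 4.50 ± 0.97 in SA and 4.82 ± 0.61 in silwet, a difference of -0.32 (SE 0.38, interval -1.12 to 0.48). GAMMA-VPE averaged 10.02 ± 0.41 in SA and 10.03 ± 0.25 in silwet, a difference of 0.00 (SE 0.10, interval -0.21 to 0.21).

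The limma adjusted p was 0.999 for each of the 4. With the replicate number as a block the SE was 0.58 for SAG29, 0.18 for WRKY6, 0.21 for BETA-VPE and 0.08 for GAMMA-VPE. None passed there either (limma adjusted p = 0.977, 0.996, 0.946 and 0.998). SA arrays were above the silwet array of the same triplet and number in 6 of 9 pairs for SAG29, 6 for WRKY6, 4 for BETA-VPE and 4 for GAMMA-VPE. Exact permutation over the 8000 exchanges within triplets gave adjusted p of 0.674, 0.978, 0.708 and 0.978 in the same order. Among all probe sets limma called 0, or 0%, in this comparison, with 532, or 3.34%, at an unadjusted p under 0.05, and 20, or 0.126%, with the replicate number as a block. Without arrays 97 and 100 the 4 differences were 0.66, 0.20, -0.22 and 0.05, and none passed.

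Triplet by triplet, the SA differences of the 4 genes took both signs. The largest in size was that of SAG29 in triplet 2, 2.90 (SE 0.97), where all 3 SA arrays lay above all 3 silwet arrays, as did 4.13% of probe sets. Its unadjusted p was 0.00818 and its limma adjusted p was 1. In triplets 1 and 3 SAG29 differed by 0.19 and -0.92. WRKY6 differed by 0.50, 0.11 and -0.56 in triplets 1, 2 and 3, and BETA-VPE by -0.66, -0.44 and 0.14. None of these passed, while 3.24% of probe sets were called in triplet 1, 0% in triplet 2 and 0% in triplet 3.

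GAMMA-VPE differed between SA and silwet by -0.06 in triplet 1, -0.32 in triplet 2 and 0.37 in triplet 3 (limma adjusted p = 0.902, 1 and 0.615). With array weights the triplet 3 difference was 0.33 and passed (limma adjusted p = 0.0308), in a fit that called 33.8% of all probe sets there. That fit leaned on 1 array per group. Silwet array 99 weighed 3.37, against 0.315 and 0.311 for arrays 97 and 98. SA array 107 weighed 4.22, against 0.778 and 0.904 for arrays 106 and 108. In triplet 3 all 3 SA arrays, at 10.57, 10.47 and 10.50, lay above the silwet arrays, at 10.08, 10.18 and 10.16. That separation was seen in 4.61% of probe sets. An F-test of the interaction between treatment and triplet called 1% of probe sets, and 5.88% with the replicate block, but none of the 4 genes in either fit. Its limma adjusted p was 0.287 for SAG29, 0.521 for WRKY6, 0.842 for BETA-VPE and 0.291 for GAMMA-VPE.

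Ordered by level over the 6 groups, SAG29 was highest in SA triplet 2 (6.53 ± 0.67), then in silwet triplet 3 (6.05 ± 0.98), SA triplet 3 (5.13 ± 1.40), silwet triplet 2 (3.63 ± 0.79), SA triplet 1 (2.35 ± 0.81) and silwet triplet 1 (2.16 ± 2.57; SD, n = 3 arrays each). No neighbours in that order were apart beyond their SD. For WRKY6 the order began with SA triplet 1 (8.06 ± 0.80) and silwet triplet 1 (7.56 ± 0.73), and the step down to silwet triplet 3 (6.44 ± 0.20) was the only one between neighbours apart beyond their SD. For GAMMA-VPE, SA triplet 3 came first (10.51 ± 0.05) and SA triplet 1 last (9.72 ± 0.36). There only silwet triplet 3 (10.14 ± 0.05) and SA triplet 2 (9.84 ± 0.07) were neighbours apart beyond their SD. The BETA-VPE group means spanned 4.24 to 4.90, with all neighbours overlapping.

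BETA-VPE instead differed between the replicate numbers, a comparison made after its values had been seen. Its log2 signal averaged 3.84 ± 0.50 on arrays of number 3, 4.73 ± 0.40 on those of number 2 and 5.42 ± 0.55 on those of number 1 (SD, n = 6 arrays each). All 6 arrays of number 3 lay below all 6 of number 1, as did 1.34% of probe sets. In a limma fit with number as a term, number 3 minus number 1 was -1.58 (SE 0.26, adjusted p = 0.00276), and it stayed between -1.75 and -1.41 with any array left out. That contrast called 13.1% of all probe sets, 7.93% lower in number 3 and the rest higher. What the numbers stand for beyond replicates is not given in the labels. The highest actin ratios, on arrays 91 and 100, were both on number 1, and their part here was not tested.

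WRKY6 differed between the same numbers by 0.74 (SE 0.21, limma adjusted p = 0.0364), with means of 7.06 ± 1.18 on number 3 and 6.32 ± 0.69 on number 1. That call was lost on leaving out array 91, 93, 100, 102, 105, 106 or 108, with adjusted p up to 0.101. SAG29 and GAMMA-VPE differed by 0.14 and 0.24 (limma adjusted p = 0.913 and 0.137).

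**Figure D3:**
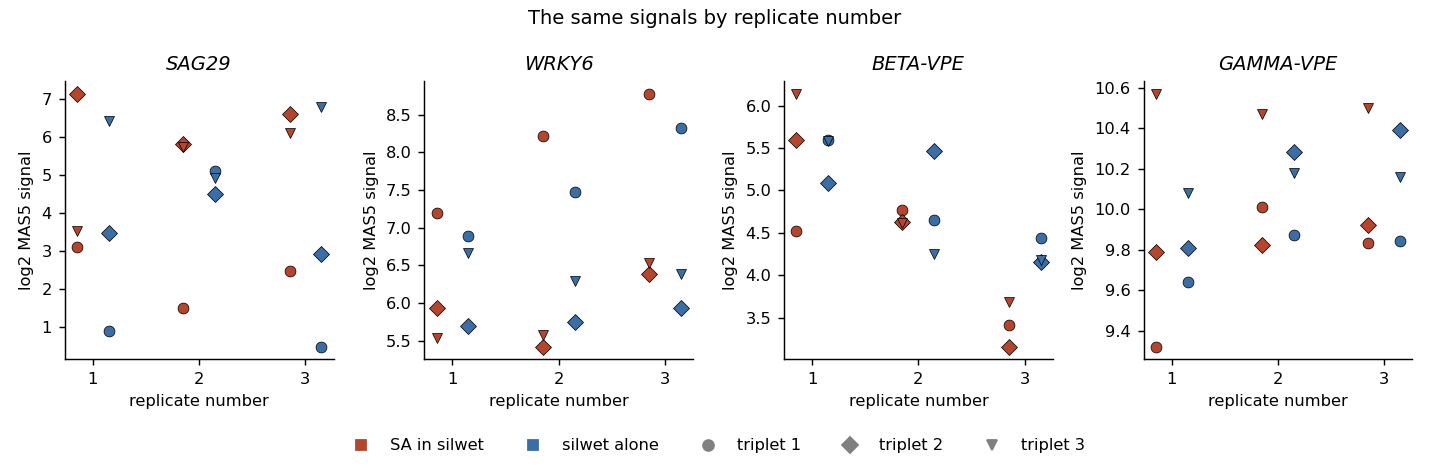
The same log2 MAS5 signals (y axis, a different range in each panel) by replicate number (x axis), with SA left of silwet and shapes for triplets. BETA-VPE lay between 3.16 and 4.44 on arrays of number 3, and between 4.52 and 6.14 on arrays of number 1.

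The 4 genes did not follow one pattern. Over the 18 arrays the Pearson correlation of log2 signal was -0.55 for SAG29 with WRKY6, -0.42 for WRKY6 with GAMMA-VPE, -0.35 for WRKY6 with BETA-VPE, 0.28 for SAG29 with GAMMA-VPE, -0.11 for SAG29 with BETA-VPE and 0.03 for BETA-VPE with GAMMA-VPE. With group means removed these became 0.01, 0.51, -0.54, -0.12, -0.18 and -0.23. The points share arrays, so these are descriptions of this set of arrays only.

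Among probe sets with 1 gene, the pattern most like that of SAG29 over the 18 arrays was that of AT5G39520 (r = 0.94), followed by AT1G09500 (0.87) and AT2G25450 (0.84). AT5G39520 averaged 4.01, 7.57 and 6.88 in SA triplets 1, 2 and 3 and 3.75, 5.76 and 7.33 in silwet, the same order of groups within each treatment as SAG29. It was picked by its correlation over these same arrays, so a likeness in group means follows from the choice. Nearest to WRKY6 were AT1G33030 (0.97), AT4G25030 (0.96) and AT3G23550 (0.94). Nearest to BETA-VPE were AT3G53690 (0.84), AT1G50630 (0.83) and AT5G54530 (0.82), and nearest to GAMMA-VPE were AT5G08520 (0.85), AT1G73750 (0.82) and AT4G28030 (0.82).

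Related genes were then described in lists. Of 10 regulators of senescence listed, the annotation named 3, WRKY6 itself, WRKY53 and WRKY22. All 3 were called lower in triplet 3 minus triplet 1, where 9.92% of all probe sets were called lower. Their median of -1.65 is the value of WRKY6, against a median of 0.09 for all probe sets. WRKY53, a regulator of early leaf senescence, differed by -2.44 (SE 0.25, limma adjusted p = 3.42e-06). WRKY22, a factor of dark-induced senescence, differed by -0.99 (SE 0.22, limma adjusted p = 0.00387). WRKY42 and WRKY47, which with WRKY6 belong to one subgroup of the family, differed by 0.28 and -0.42, and WRKY20 by 0.14, and none of these passed.

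The senescence-associated genes had 2 of 21 members named, and they moved in opposite directions. SAG29 rose as above. SAG101, a partner of the immune regulator EDS1, fell by 0.53 on the log2 scale (SE 0.17, limma adjusted p = 0.0326). That call was lost without array 91, 93, 97, 99, 101, 102 or 108, with adjusted p up to 0.0896.

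Of the other vacuolar proteases, 6 of 14 were tested. Of these, 3 were called higher in triplet 3 minus triplet 1 and 0 lower, against 12.9% and 9.92% of all probe sets, with a median of 0.66. The 3 were the cathepsin B-like cysteine proteases CATHB2, at 0.87 (SE 0.20, limma adjusted p = 0.00446), CATHB3, at 0.87 (SE 0.16, limma adjusted p = 0.000887), and CATHB1, at 0.58 (SE 0.17, limma adjusted p = 0.0197). The CATHB1 call was lost without array 93, 99, 101 or 102. The aspartic proteases APA1, APA2 and APA3 measured 0.30, 0.74 and 0.15 and did not pass. The remaining processing enzymes, ALPHA-VPE and DELTA-VPE, had mean log2 signals of 2.05 and 2.77 and were left out by the filter on low signal.

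Among 9 tested SWEET sugar transporters, 2 were called higher and 0 lower in triplet 3 minus triplet 1, against the same 12.9% and 9.92%: SAG29, described above, and SWEET17, a vacuolar fructose transporter, at 0.90 (SE 0.26, limma adjusted p = 0.0191). The SWEET17 call was lost without array 92, 101 or 106. The median of the 9 was -0.06, and SWEET16, a related vacuolar transporter, measured -0.14 and did not pass. Of 9 tested genes of the ESCRT machinery, which sorts membrane proteins to the vacuole, and of vacuolar sorting, 1 was called higher and 3 lower, again against 12.9% and 9.92% of all probe sets. VPS60.1 differed by -1.34 (SE 0.14, limma adjusted p = 5.63e-06), VPS20.1 by -0.78, VPS2.1 by -0.51 and VPS9B by 0.92, while VPS2.2 measured 0.07 and did not pass.

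None of 3 subunits of the vacuolar proton pump and neither of the protease inhibitors CYS1 and SERPIN1 was called in this contrast. As 22.8% of all probe sets were called there, a lack of calls in lists this short says little about these genes. VHA-A1 and VHA-A2 measured -0.23 and 0.26, and CYS1 and SERPIN1 0.00 and 0.12. For SA minus silwet, 0 members of any list were called, as were 0 of all probe sets. List medians ran between -0.17 and 0.44, against -0.02 for all probe sets.

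**Figure D4:**
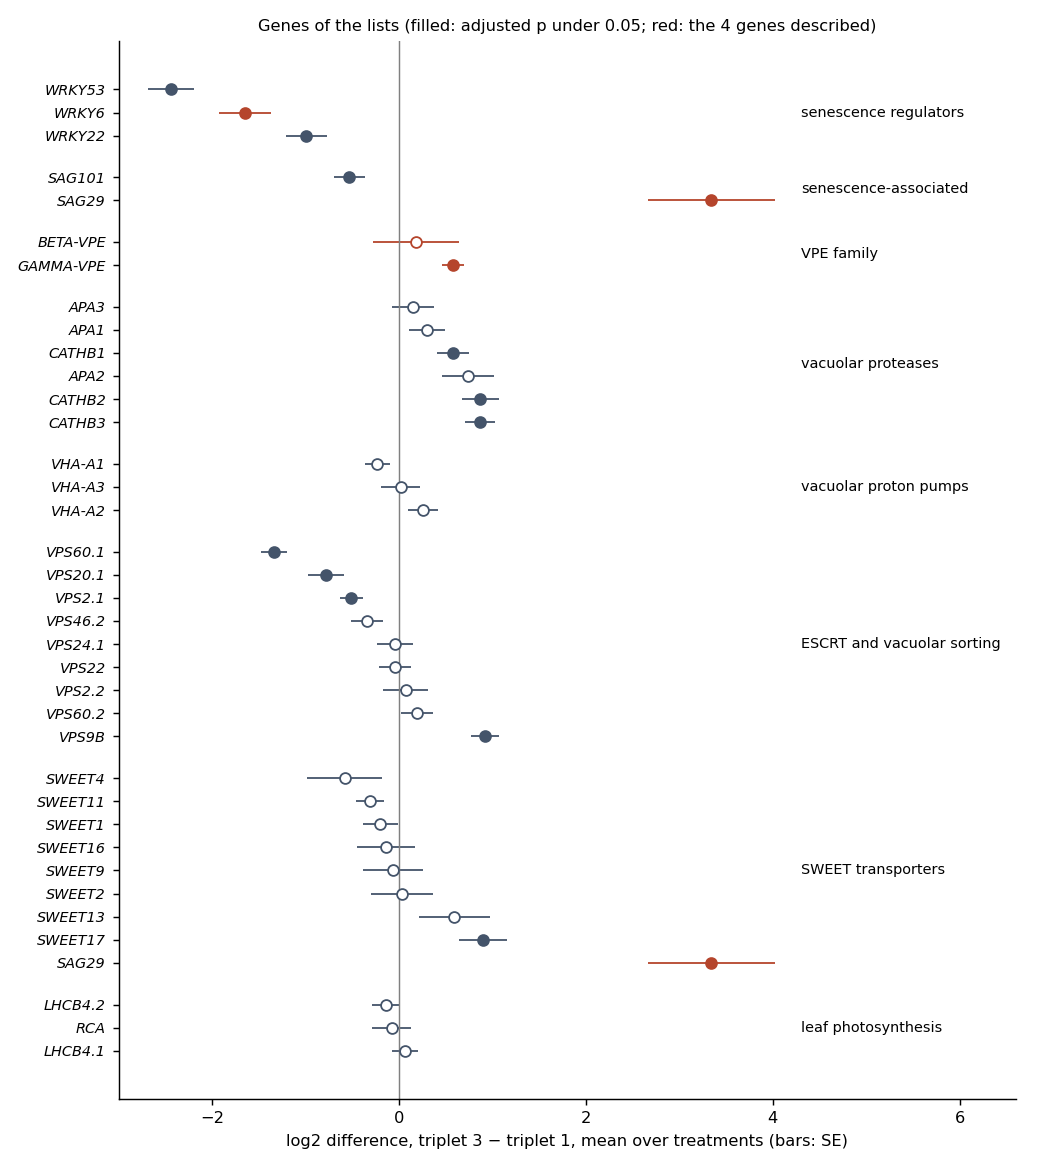
Log2 differences of triplet 3 minus triplet 1, averaged over treatments (x axis, bars are SE), for tested genes of 8 lists. Filled points passed a limma adjusted p of 0.05 and red marks the 4 genes described. WRKY53 (-2.44) and SAG29 (3.34) stand at the ends.

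Markers gave some account of the material, for which the labels name no tissue. The leaf genes RCA, LHCB4.1 and LHCB4.2, of the carbon-fixing and light-harvesting apparatus, averaged 11.48, 11.77 and 10.51 over all arrays. In triplet 3 minus triplet 1, where LHCB4.1 measured 0.06 and LHCB4.2 -0.14, 0 of the 3 were called. With 22.8% of all probe sets called there, 0 of 3 says little about these genes. The root beta-glucosidase PYK10 averaged 7.88, 7.77 and 7.06 in SA triplets 1, 2 and 3 and 8.35, 7.35 and 7.09 in silwet. Its triplet 3 minus triplet 1 difference was -1.05 (SE 0.26, limma adjusted p = 0.00766), and its part in the changes of the 4 genes was not tested. The seed genes PAP85 and OLEO3 had mean log2 signals of 2.75 and 3.10, below the filter. The annotation used here gave no probe set of their own to the listed genes of chlorophyll breakdown, abscisic acid and seed storage or to the SA-induced PR1, PR2 and PR5, which were not analysed here.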

How the data were processed

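The authors deposited linear intensity values for 22810 probe sets. Per the submitters' processing notes they used MAS5, for which no version is stated. The trimmed mean of every array, with 2% off each end, was 100.01, so values were used as deposited and taken as log2. Gene names came from the platform annotation, updated through RefSeq (TAIR10.1). Leaving out the 64 controls, 22746 remained: 13513 were tied to 1 gene, 503 to several, and 8730 are unnamed here. No sequences or coordinates were used.

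The dimmest 30% of these probe sets (mean log2 over 18 arrays) were dropped, and 15922 were tested. A limma 3.58.1 fit in R 4.3.3 used 6 means (treatment by triplet), a mean-variance trend and 12 residual degrees of freedom, and p-values were Benjamini-Hochberg adjusted over the 15922, with 0.05 as threshold. The fit was tested on simulated data with independent noise on every array. Those data lack the differences between replicate numbers seen here, so that test does not cover them. Exact permutation tests were two-sided. Precision is limited by the number of arrays.

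The replicate numbers were checked as pairing: deviations of same-numbered means from their group means correlated at 0.58 to 0.683 between treatments, and those of different numbers at -0.457 to -0.153. Deviations within a group sum to zero, so the negative range follows from the positive one and is no separate support. For single arrays within a triplet the ranges were 0.216 to 0.481 and -0.377 to 0.113. The numbers, taken from the labels, were thus used as a block in an alternative fit, but the main fit and the permutations leave them out. The block is given where it changes a call, for SA minus silwet, and for BETA-VPE in triplet 3 minus triplet 1. The members and lists were chosen with earlier results of these data known. The ESCRT, inhibitor, proton pump, seed protein and WRKY20 lists were added from annotated names. The text names the 4 genes, from each list the 2 genes with the smallest p in SA minus silwet and in triplet 3 minus triplet 1, the VPE family, and the 3 genes with the highest correlation to each of the 4. VPS2.1, APA1, APA2, RCA, PAP85 and OLEO3 fall outside that rule and were named after their values were seen. Alternatives were no filter, a floor at the 20th percentile, quantile normalization, array weights, the replicate block, treatment alone, and each array left out. Leaving out arrays 97 and 100, a block within triplets and the comparison of numbers were added after seeing the data.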

Additional observations from a re-analysis of the deposited data

Results flagged for a closer look

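GAMMA-VPE measured lower in SA than in silwet in all 3 same-numbered pairs of triplet 2, with a mean difference of -0.32, and higher in all 3 pairs of triplet 3, with 0.37 (log2). The test of that difference, the change in SA minus the change in silwet for triplet 3 minus triplet 2, gave 0.69 (SE 0.24) with a limma adjusted p of 0.714 (unadjusted p 0.0118). The contrast was singled out by these same signs, so its unadjusted p is no support for a difference. Among all probe sets, 4.53% had an unadjusted limma p under 0.05 in it and 0 were called. The interaction over all triplets had a limma adjusted p of 0.291, and of 0.0114 with array weights, a fit that called 35.1% of all probe sets for the interaction, against 1% without weights. The cause was not tested.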

How the results depend on the processing

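The limma calls over both treatments for SAG29 and WRKY6 (triplets 2 and 3 minus triplet 1) and GAMMA-VPE (triplet 3 minus triplet 1) held with each array left out. They also held under the 6 other alternatives that fit differences between triplets. Treatment alone and the block within triplets fit only SA minus silwet. With the replicate number as a block, triplet 3 minus triplet 1 of WRKY6 in silwet passed (adjusted p = 0.028), and the block changed no other call of the 4 genes. It gave 20 calls for SA minus silwet, 125 for triplet 3 minus triplet 2 and 936 for the interaction, against 0, 29 and 160. With array weights the calls were 257 for SA minus silwet, 6063 for triplet 2 minus triplet 1, 2411 for triplet 3 minus triplet 2, 6938 for triplet 3 minus triplet 1 and 5586 for the interaction. There GAMMA-VPE passed for triplet 3 minus triplet 2 (0.28, adjusted p = 0.0303), and WRKY6 and GAMMA-VPE passed for the interaction (adjusted p = 0.0201 and 0.0114). Also with array weights, WRKY6 (adjusted p = 0.0135) and GAMMA-VPE (0.0422) passed for triplet 3 minus triplet 1 in silwet, where 31.4% of all probe sets were called. GAMMA-VPE passed with these weights for triplet 3 minus triplet 2 in SA (0.0493), where 0.132% were called. In the main fit that difference was 0.67 (SE 0.17) and did not pass (limma adjusted p = 0.748), nor did it with the replicate block (0.138). SA triplet 3 lay wholly above SA triplet 2 in GAMMA-VPE, as did 5.34% of probe sets. SAG29 passed with array weights for triplet 3 minus triplet 2 in silwet (0.0117), where 41.8% were called. The weights ran from 0.133 on array 100 to 5.12 on array 95. A floor at the 20th percentile gave 4 calls for SA minus silwet, as did leaving out arrays 97 and 100, which gave 369 for the interaction. With 1 array left out, calls ran from 0 to 2 for SA minus silwet, 5 to 91 for triplet 3 minus triplet 2 and 18 to 683 for the interaction. The causes were not tested.

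Signs that turned belonged to differences that did not pass. WRKY6 in SA minus silwet was -0.01 after quantile normalization and -0.10 to 0.16 with 1 array left out. BETA-VPE in triplet 3 minus triplet 2 was -0.29 with array weights, -0.16 without arrays 97 and 100 and -0.27 to 0.35 with 1 array left out. With 1 array left out, BETA-VPE ran from -0.17 to 0.44 for triplet 2 minus triplet 1, -0.15 to 0.46 for triplet 3 minus triplet 1, -0.08 to 1.14 for the same within SA and -0.68 to 0.13 within silwet. Its SA minus silwet ran from -1.01 to 0.20 in triplet 2 and -0.52 to 0.71 in triplet 3, and that of WRKY6 from -0.12 to 0.36 in triplet 2. In triplet 1, SA minus silwet of SAG29 was -0.51 with the floor, -0.26 with array weights, -0.18 without arrays 97 and 100 and -0.66 to 1.67 with 1 array left out, and that of GAMMA-VPE 0.07, 0.14 and -0.21 to 0.14 under the last 3 of these. SAG29 between numbers 3 and 1 ran from -0.27 to 0.63. For triplet 3 minus triplet 1, WRKY20 was -0.22 with array weights, -0.05 without arrays 97 and 100 and -0.12 to 0.28 with 1 array left out, LHCB4.1 -0.05, -0.09 and -0.10 to 0.15, and SWEET16 0.07 without arrays 97 and 100 and -0.39 to 0.11. VPS2.2 ran from -0.05 to 0.21 and APA3 from -0.02 to 0.32. Array weights were not run for the replicate numbers. Dim signals limit SAG29 and BETA-VPE.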
